A study of Rattus norvegicus with 6 samples.

Results

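The gelatinases Mmp2 and Mmp9 and the inhibitor Timp1 were followed in the injured rat facial nerve. These 3 genes were taken by their Ensembl gene IDs (Mmp2, ENSRNOG00000016695; Mmp9, ENSRNOG00000017539; Timp1, ENSRNOG00000010208), of 30562 IDs counted. RNA came from facial nerve tissue of wild type rats, 14 days after the nerve was injured. The injury model (FNI) and injured nerve that was also given C-Gel-light, a treatment that the series title ties to a Chlorella hydrogel releasing oxygen in light, had 3 libraries each. Both groups therefore carried the injury, while nerve without injury and the separate parts of the treatment were not analysed here. Total counts ran from 22957382 to 28997855 per library. Since no label states that each library is a different animal, every p-value here reflects the spread of these libraries alone, part or all of which may be technical. Each library also had a batch label of its own, and the labels do not say whether it marks a processing batch; if it does, batch and group cannot be told apart.

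Gelatinases are secreted zinc proteases that cut denatured collagen, type IV collagen and other parts of the basement membrane, such as the tube that ensheathes each Schwann cell and its axon. Both are made as latent proenzymes and act only once the inhibitory propeptide is displaced. Mmp2 is broadly made by fibroblasts and other stromal cells, whereas Mmp9 is inducible and is known from neutrophils, macrophages and injured Schwann cells, and in damaged nerve it is linked to breakdown of the blood-nerve barrier. Timp1 is a secreted inhibitor that blocks active metalloproteinases and also binds latent Mmp9. Messenger RNA was measured here, not protein, activation or proteolysis.

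Of the 3 genes, only Mmp9 passed the test between the groups: it was close to absent after C-Gel-light, 47.7-fold lower than in FNI by the fitted change, a size that rests largely on FNI replicate 1 (log2 fold change -5.57 with it and -4.02 without it). Mmp2 and Timp1, both abundant, showed no difference beyond the spread of the libraries. The test was edgeR's quasi-likelihood F test over all 15581 genes that passed a filter on low counts, with a Benjamini-Hochberg adjusted p under 0.05, and by it 14.8% of all tested genes were called and 7.7% were called lower with C-Gel-light. The call of 1 gene in 3 is thus to be read against a treatment comparison in which many genes differed. All 3 genes passed the filter, but Mmp9 passed only through the FNI libraries: it reached the required 0.393 CPM (the count scaled to a common library size) in 3 FNI libraries and in 0 C-Gel-light libraries. Among genes of so low a level, those that pass in this way are ones that are higher in 1 group.

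**Figure D1:**
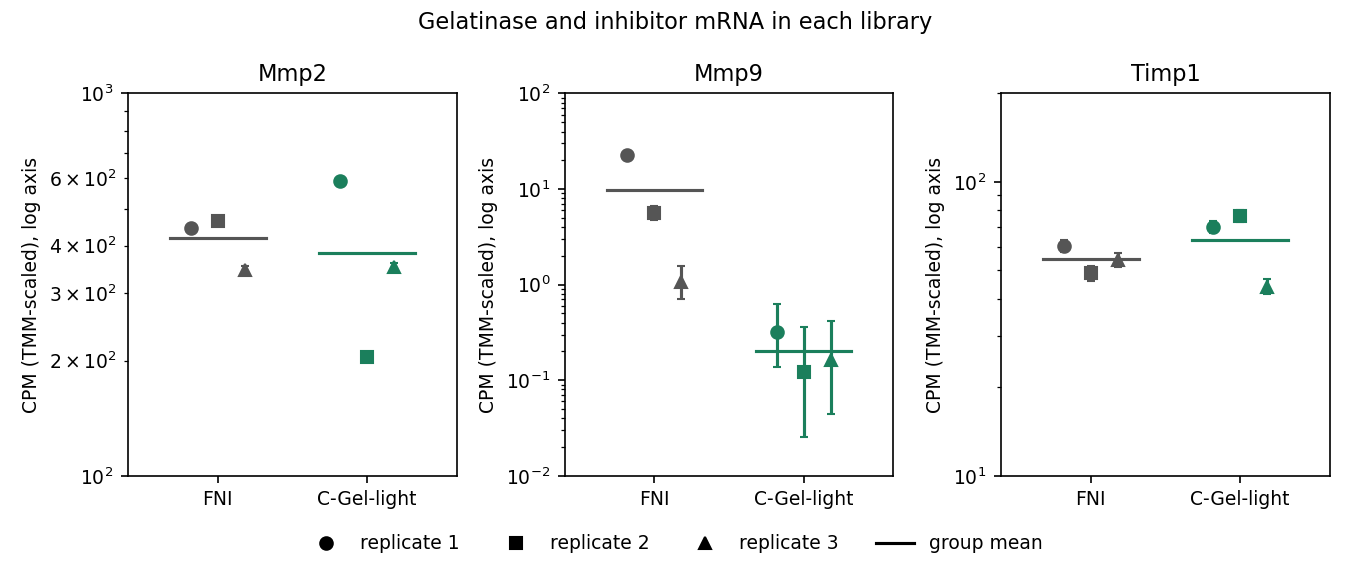
Level of each gene in each library, in CPM with library sizes scaled by TMM factors, on log axes whose range differs between panels. Symbols are the replicates, horizontal lines the group means and vertical bars the 95% counting interval of each count; for Mmp9 all C-Gel-light libraries (at most 0.319 CPM) lie below all FNI libraries (at least 1.07 CPM), and for Mmp2 and Timp1 the groups overlap.

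Values per library are given throughout in the order of replicates 1 to 3. Mmp9, the inducible gelatinase, had 637, 137 and 28 counts in the FNI libraries. It had 8, 3 and 4 counts in those treated with C-Gel-light. Every C-Gel-light library was thus below every FNI library, and the treated libraries held almost no Mmp9 reads. Scaled to CPM with TMM factors, which correct library sizes for composition, the FNI libraries stood at 22.8, 5.61 and 1.07 CPM and the C-Gel-light libraries at 0.319, 0.122 and 0.163 CPM. The group means were 9.82 ± 11.4 CPM in FNI and 0.201 ± 0.104 CPM with C-Gel-light (SD, n = 3 per group). In FNI the SD was larger than the mean, because the libraries differed widely.

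The fitted log2 fold change of Mmp9, C-Gel-light over FNI, was -5.57 (SE 1.23, 95% interval -8.48 to -2.67; edgeR quasi-likelihood adjusted p = 0.031), lower in 3 of 3 treated libraries. The interval runs from a fold of 0.0028 to 0.157, so the size of the fall is known only loosely. Of the 1200 genes called lower, 26 (2.17%), Mmp9 among them, had a fitted change at least this large, and the median log2 fold change of those 1200 was -1. Mmp9 passed the filter only through its FNI libraries, which favours a large fitted fall, so this rank is no separate support. The fitted change also rests largely on FNI replicate 1, without which it was -4.02. For 20.8% of the tested genes all C-Gel-light libraries lay below all FNI libraries, so the lack of overlap alone sets Mmp9 apart little. The pooled counts, 802 against 15, gave a ratio of 50.6 with a 95% interval of 30.5 to 90.8 that covers counting error only. Without FNI replicate 1 the pooled counts were 165 against 15, or 16.2-fold with a 95% interval of 9.52 to 29.5 from counting alone.

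The size of the fall depended on which FNI library it was read against. FNI replicate 1 held 79.4% of all Mmp9 counts of its group, and the highest FNI library was 21.3-fold above the lowest. FNI replicate 3, the lowest, still stood 3.36-fold above C-Gel-light replicate 1, the highest treated library. The 95% counting intervals of this closest pair were 0.712 to 1.55 CPM and 0.138 to 0.628 CPM and did not overlap. The C-Gel-light libraries differed among themselves by 2.61-fold, and all 3 of their counting intervals overlapped. The SD of log2 CPM of Mmp9 was 2.16 in FNI and 0.51 with C-Gel-light, where the prior count of 2 shrinks the spread of so few counts.

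The call of Mmp9 was not kept by every way of testing. It was lost when C-Gel-light replicate 1, 2 or 3 was left out (fitted values of -6.06, -5.32 and -5.43 on the log2 scale; edgeR adjusted p = 0.0811, 0.0999 and 0.0805). Leaving out any library lowered the number of genes called over all, here from 2301 to 1204, 1153 and 1630. The call of Mmp9 was also lost by limma-voom (-4.69, adjusted p = 0.175) and without the filter on low counts (-5.57, adjusted p = 0.0818). It remained past the threshold without FNI replicate 1, the library with most Mmp9, where the log2 fold change was -4.02 (SE 0.81, edgeR adjusted p = 0.0472). Over 19 alternatives the fold change was negative in 19 and past the threshold in 11, with adjusted p from 4.19e-05 to 0.233. Both ends came from alternatives chosen after seeing the data, the edgeR exact test and limma-voom with a variance weight per group. Without these the adjusted p ran from 5.9e-05 (DESeq2) to 0.175 (limma-voom). With groups that do not overlap, the sign could hardly have changed.

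**Figure D2:**
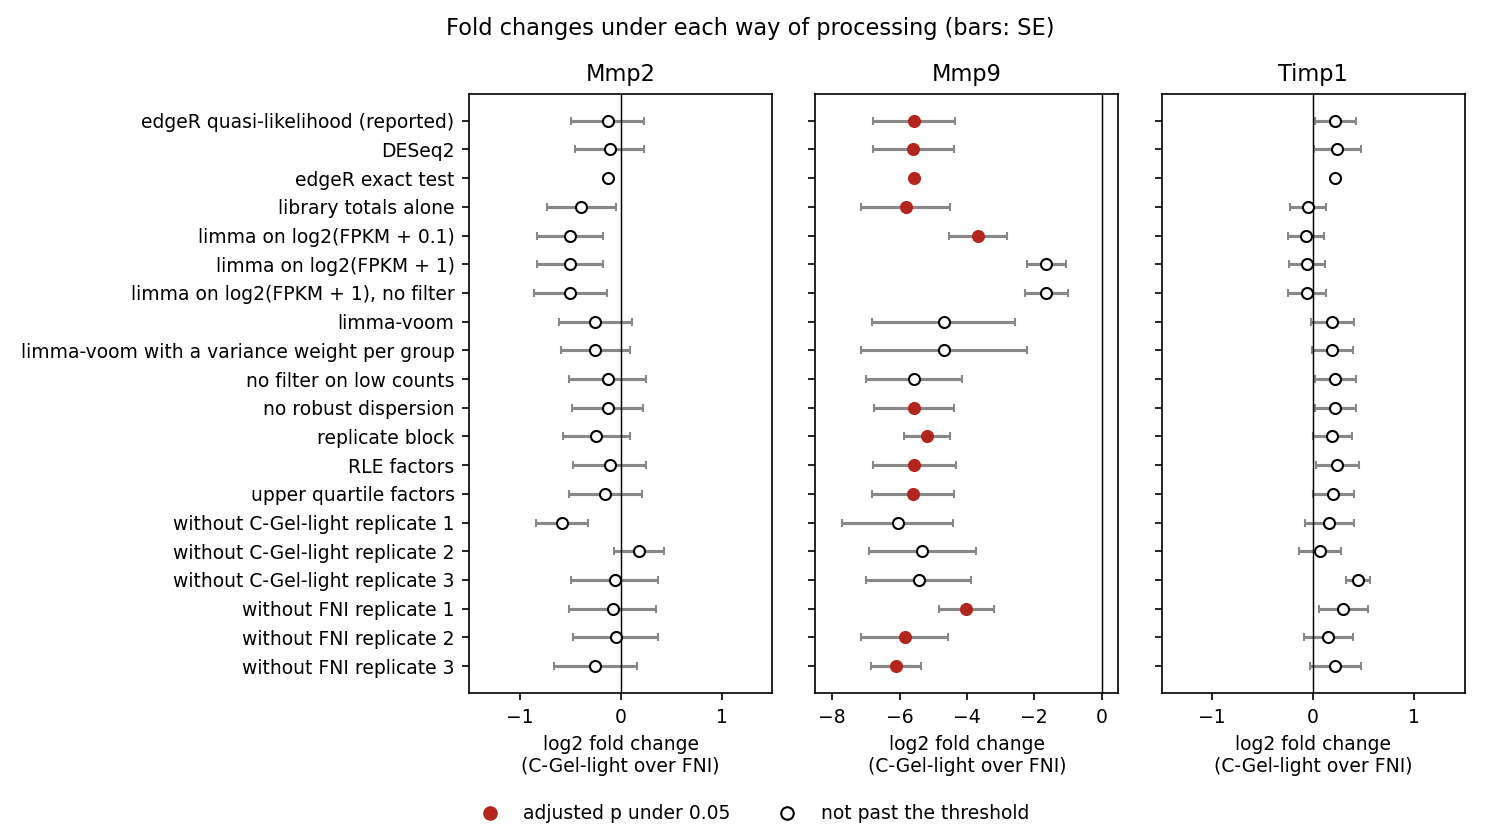
Log2 fold change of each gene, C-Gel-light over FNI, by the reported test and under 19 alternatives, with bars of 1 SE (none for the edgeR exact test); the axis of Mmp9 is wider than the others. Filled points passed an adjusted p under 0.05, which Mmp9 did in 11 of 19 alternatives and Mmp2 and Timp1 in 0. The edgeR exact test and limma-voom with a variance weight per group were chosen after seeing the data.

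In these bulk libraries, fewer Mmp9-producing cells and less Mmp9 RNA per cell cannot be told apart. The files and the tables at hand do not pair the Ensembl IDs with symbols (0 of 47357 rows of the RefSeq gene table held one), so neutrophil, macrophage, Schwann cell and other marker genes were not analysed here, and the labelled tissue was not checked against markers. Their part in the fall of Mmp9 was not tested. For the same reason the activator Mmp14, the other metalloproteinases and Timps, plasminogen activators and basement membrane substrates were not analysed here.

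Mmp2, the broadly expressed gelatinase, was abundant in both groups. The FNI libraries held 12470, 11307 and 9046 counts of it, the C-Gel-light libraries 14859, 5033 and 8658. In CPM these were 446, 463 and 346 in FNI and 592, 205 and 352 with C-Gel-light. The treated libraries thus held both the highest and the lowest value, and the groups overlapped. The means were 418 ± 63.2 CPM in FNI and 383 ± 195 CPM with C-Gel-light (SD, n = 3).

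The log2 fold change of Mmp2 was -0.13 (SE 0.36, edgeR adjusted p = 0.834), with a 95% interval from a fold of 0.508 to 1.65. A change of up to 1.65-fold upwards, or a fall to 0.508 of the FNI level, is therefore not excluded by these libraries. C-Gel-light replicate 2 decided the sign, which was positive without it (log2 fold change 0.18, edgeR adjusted p = 0.681). Without C-Gel-light replicate 1, the highest library, the value was -0.58 (edgeR adjusted p = 0.207). Mmp2 was uneven within the treated group, with a 2.89-fold range against 1.34-fold in FNI. Its SD of log2 CPM with C-Gel-light was 0.77, above that of 98.6% of the 294 tested genes of like abundance, and in FNI it was 0.23, above that of 77.9%. The median SD over all tested genes was 0.17 in FNI and 0.21 with C-Gel-light. A wide spread was not particular to Mmp2. For Timp1 the SD was 0.43 with C-Gel-light, above 94.3% of 2385 genes of like abundance, and 0.15 in FNI, above 74%. For Mmp9 it was 2.16 in FNI, above 98.7% of 1105 such genes, and 0.51 with C-Gel-light, above 58%. Like abundance was judged by the mean log2 CPM over all 6 libraries, which for Mmp9 was 0.25. Its own log2 CPM was 4.515, 2.509 and 0.201 in FNI and -1.332, -2.318 and -2.052 with C-Gel-light. Within a group, Mmp9 is thus not set against genes of its own level there.

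Timp1, the inhibitor, had 1694, 1193 and 1418 counts in the FNI libraries. It had 1760, 1885 and 1084 counts in the treated libraries. In CPM the FNI libraries lay at 60.6, 48.9 and 54.2 and the C-Gel-light libraries at 70.1, 76.7 and 44.1. As with Mmp2, the treated group held the highest and the lowest library, so the groups overlapped. The means were 54.6 ± 5.86 CPM in FNI and 63.6 ± 17.2 CPM with C-Gel-light (SD, n = 3).

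The log2 fold change of Timp1 was 0.22 (SE 0.2, edgeR adjusted p = 0.494), with a 95% interval from a fold of 0.834 to 1.63. Its direction turned with the scaling: by library totals alone the log2 fold change was -0.05 (edgeR adjusted p = 0.862), under a scaling that moved the median of all tested genes to -0.26, so that relative to that median Timp1 stood at 0.22. Mmp2 relative to the same median stood at -0.13 and Mmp9 at -5.55. Without C-Gel-light replicate 3, the library lowest in Timp1, the value was 0.44 (SE 0.12, edgeR adjusted p = 0.0684), the nearest to the threshold among the 19 alternatives. Within the treated group Timp1 was highest in replicate 2, the library lowest in Mmp2.

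**Figure D3:**
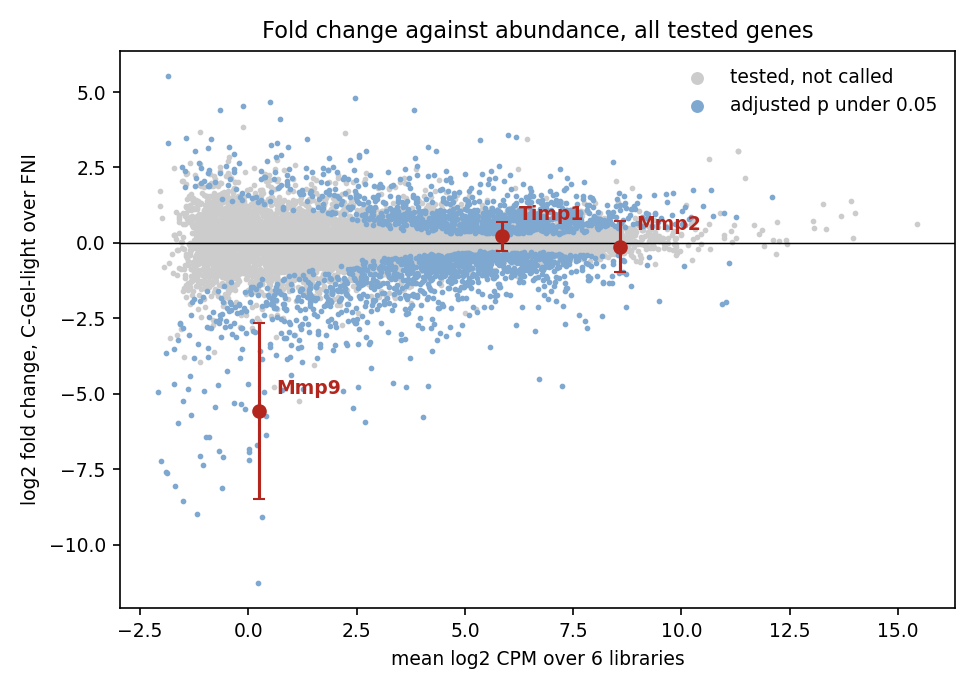
Log2 fold change, C-Gel-light over FNI, against mean log2 CPM over the 6 libraries for the 15581 tested genes; blue points passed an adjusted p under 0.05. The red points with 95% intervals are Mmp9, among the low and strongly lowered genes at -5.57, and Mmp2 and Timp1, both abundant and near 0 at -0.13 and 0.22.

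In the RefSeq gene table (GRCr8), the span of Timp1 overlaps that of Syn1, the gene of the neuronal vesicle protein synapsin, which is on the opposite strand. Only whole gene spans were compared, and whether any exons are shared was not examined. Whether the counting used strand is not given in the sources used here. It is therefore not known whether Syn1 transcripts added to the counts of Timp1. No gene of that table overlapped Mmp2 or Mmp9.

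As background, Timp1 is a textbook target of AP-1, the dimer of Fos and Jun proteins, acting with an Ets factor at a neighbouring site. Of the 3 genes, Timp1 was matched in the RefSeq promoter table, and the 250 bases before its start are printed for that reason (GRCr8, chrX:3771123-3771372, minus strand, 5′ to 3′ along the gene). Capitals mark matches, searched on both strands, to the AP-1 motif TGAGTNA and to the Ets-type PEA3 motif AGGAAG.
Timp1 promoter: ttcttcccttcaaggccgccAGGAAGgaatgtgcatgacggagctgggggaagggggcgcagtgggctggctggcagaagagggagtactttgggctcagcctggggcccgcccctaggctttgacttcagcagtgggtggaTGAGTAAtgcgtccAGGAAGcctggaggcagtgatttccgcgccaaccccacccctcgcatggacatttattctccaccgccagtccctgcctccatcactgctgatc
The AP-1 match, TGAGTAA, lay 108 to 102 bases before the start, and the PEA3 matches lay 230 to 225 and 94 to 89 bases before it, with no overlap between motifs. In windows of the same length, 11.8% of 33469 promoters held this loose form of the AP-1 motif, 29.5% held the PEA3 motif and 3.48% held both. These matches describe the letters of the window and were not tested as binding sites.

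To compare the genes with each other, the deposited FPKM was used, which divides counts by gene length and by library total; the lengths behind it were 3166 bases for Mmp2, 3083 for Mmp9 and 873 for Timp1. In FNI the mean levels were 144 ± 16.6 FPKM for Mmp2, 68.3 ± 8.35 FPKM for Timp1 and 3.44 ± 4.02 FPKM for Mmp9 (SD, n = 3). With C-Gel-light they were 110 ± 51.7 FPKM for Mmp2, 66.1 ± 15.1 FPKM for Timp1 and 0.059 ± 0.0276 FPKM for Mmp9. Mmp2 was thus the most abundant of the 3 in 5 of 6 libraries, and in C-Gel-light replicate 2 Timp1 stood above it (79.3 against 58.4 FPKM). Mmp9 was the lowest in every library.

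Against all tested genes, Mmp2 exceeded the FPKM of 94.8% to 98.6% of genes and Timp1 that of 93.5% to 96.4%, over the 6 libraries. Mmp9 exceeded 53.6%, 24.2% and 7.8% of tested genes in the FNI libraries, and 1.9%, 0.8% and 0.6% in the treated libraries. The low ranks in the treated libraries were fixed by the filter, which keeps few genes below 0.393 CPM in a library, and are no separate result. Of the summed FPKM of the 3 genes, Mmp9 made up 3.4%, 0.892% and 0.202% in the FNI libraries, and 0.0387%, 0.0259% and 0.0326% in the treated libraries.

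Ratios between genes of the same library do not depend on how libraries are scaled to each other. Timp1 per Mmp9, the inhibitor against the inducible gelatinase, was 9.39, 30.7 and 179 in the FNI libraries and 777, 2219 and 957 in the treated libraries. The groups did not overlap, and the lowest treated library was 4.34-fold above the highest FNI library. The geometric means were 37.2 and 1182, a 31.7-fold difference, or 4.99 on the log2 scale, which was 3.99 without FNI replicate 1 and 6.12 without FNI replicate 3. On the log2 scale the ratio was 5.22 ± 2.14 in FNI and 10.21 ± 0.8 with C-Gel-light (SD, n = 3; two-sided exact permutation p = 0.1, the smallest that 3 against 3 libraries allow; 0.2 adjusted over the 4 ratios tested). Over the 6 libraries Timp1 ranged from 49.6 to 79.3 FPKM and Mmp9 from 0.0357 to 8 FPKM, so most of the range of the ratio came from Mmp9. The difference between the groups thus mostly restates the Mmp9 counts and is no separate result.

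Mmp9 per Mmp2 was 0.0525, 0.0124 and 0.00318 in the FNI libraries. It was 0.000553, 0.000612 and 0.000474 in the treated libraries. The groups did not overlap, with a gap of 5.19-fold between them; the difference of -4.55 on the log2 scale was -3.53 without FNI replicate 1 and -5.55 without FNI replicate 3. Mmp2 ranged from 58.4 to 162 FPKM and Mmp9 from 0.0357 to 8 FPKM. This ratio thus mostly restates the Mmp9 counts and is no separate result. Within groups, the ratio was far more even among the treated libraries than among the FNI ones. The log2 ratio was -6.29 ± 2.02 in FNI and -10.85 ± 0.19 with C-Gel-light (SD, n = 3; two-sided exact permutation p = 0.1, the smallest possible; 0.2 adjusted over the 4 ratios). With 8, 3 and 4 counts of Mmp9 behind the treated values, their evenness is finer than the counting error allows to be resolved.

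Timp1 per Mmp2 was 0.493, 0.383 and 0.568 in the FNI libraries and 0.43, 1.36 and 0.454 in the treated libraries. C-Gel-light replicate 2 stood apart, and the other treated libraries lay within the FNI range. The log2 ratio was -1.07 ± 0.29 in FNI and -0.64 ± 0.94 with C-Gel-light (SD, n = 3; two-sided exact permutation p = 0.7; 0.7 adjusted over the 4 ratios). The mean difference of 0.44 on the log2 scale became -0.11 without C-Gel-light replicate 2. Timp1 per summed gelatinase behaved alike, since Mmp2 made up nearly all of the sum, with a difference of 0.47 (two-sided exact permutation p = 0.7; 0.7 adjusted over the 4 ratios), or -0.07 without that library.

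**Figure D4:**
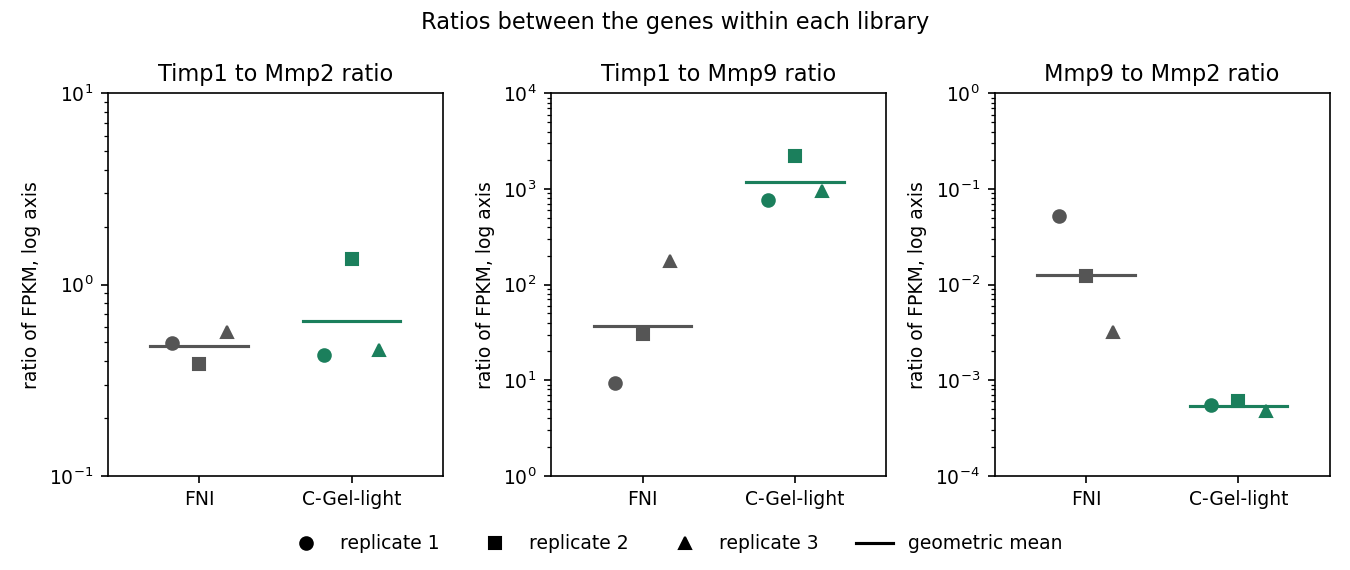
Ratios of FPKM between the genes within each library, on log axes; symbols are the replicates and lines the geometric means of each group. Timp1 per Mmp9 and Mmp9 per Mmp2 do not overlap between the groups, whereas Timp1 per Mmp2 overlaps and C-Gel-light replicate 2, at 1.36, stands above the other libraries.

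Other genes were compared with each of the 3 by the root mean square difference of log2 CPM over the 6 libraries, after centring each gene on its own mean, among tested genes whose mean log2 CPM reached 1. For Mmp2 the closest was ENSRNOG00000019211, at a difference of 0.062 against a median of 0.533 over 13037 genes. Its counts were 2664, 888 and 1560 in the treated libraries and 2096, 2017 and 1758 in the FNI libraries. The shared dip in C-Gel-light replicate 2 follows from choosing the gene by likeness and is no separate result. For Timp1 it was ENSRNOG00000027026, at 0.057 against a median of 0.356, with 173, 190 and 115 counts in the treated libraries and 171, 131 and 150 in the FNI libraries.

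For Mmp9 none of the compared genes came within 0.5, against 4637 for Mmp2 and 10184 for Timp1. The difference is not scaled to the range of a gene, which was far wider for Mmp9. Tested genes as low as Mmp9 itself were not compared, so the lack of a close gene does not make its pattern unique. For Mmp9 the closest was ENSRNOG00000025691, at 0.789 against a median of 2.508 over 13038 genes, with 2118, 274 and 266 counts in the FNI libraries and 29, 10 and 40 in the treated libraries. Both genes were highest in FNI replicate 1, which a choice by likeness favours. The other gene had like counts in FNI replicates 2 and 3, where Mmp9 had unlike ones. In CPM, Mmp9 was 4.06-fold higher in FNI replicate 1 than in replicate 2, and 5.24-fold higher in replicate 2 than in replicate 3. Of the 13038 genes compared, all more abundant than Mmp9 with its mean log2 CPM of 0.25, 2085 (16%) had the same order of the FNI libraries and 0 had both steps as large. Since the steps were taken from Mmp9 itself and genes as low were left out, nothing is concluded from that 0.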

How the data were processed

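Deposited by the authors were raw counts for each Ensembl gene ID and library, and FPKM, which for the 3 genes equalled, up to a constant, the counts divided by library total and a gene length. Build mRatBN7.2, RSEM 1.2.29, STAR 2.4.2a, edgeR 3.28.1, fastp 0.22.0 and FastQC 0.11.9 are named, without roles, per the submitters' processing notes. RNA was enriched with oligo(dT) beads, per the labels' protocols.

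Counts were filtered with filterByExpr (minimum count 10), scaled with TMM factors and tested over 15581 genes in edgeR 4.0.16 (R 4.3.3) by quasi-likelihood F tests with robust dispersions and a single group term. SE is the size of the log2 fold change divided by the square root of F; intervals at 95% use the degrees of freedom of that test. Log2 CPM had a prior count of 2. Two-sided exact permutation tests served for ratios of FPKM. Counting intervals are exact Poisson or binomial and cover counting error only.

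The members, lists and rules were chosen with earlier results of these data known. The named genes are the 3 members and, for each, the closest ID by root mean square difference. Lists of pathway and marker genes needed symbols and were not used. Alternatives were DESeq2 1.42.0, limma-voom (limma 3.58.1), other factors, no filter, a block for replicate number, no robust dispersion, each library left out, and limma on log2(FPKM + 1) or log2(FPKM + 0.1). Chosen after seeing the data were limma-voom with a variance weight per group and the edgeR exact test.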

Additional observations from a re-analysis of the deposited data

How the results depend on the processing

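For Mmp9 (log2 fold change -5.57, adjusted p = 0.0306 by edgeR) the call was lost by limma-voom (-4.69), limma-voom with a variance weight per group (-4.69, adjusted p = 0.233), limma on log2(FPKM + 1) with the filter (-1.65, adjusted p = 0.0728) and without it (-1.65, adjusted p = 0.14), and by edgeR without a filter (-5.57). A pseudocount of 1 exceeds every treated value of Mmp9 and shrinks the change by construction. One of 0.1 also exceeds them all (0.0895, 0.0357 and 0.0518 FPKM). It therefore shrinks the change too, though less, to -3.67 (limma adjusted p = 0.0253). Leaving out 1 library gave -6.1 to -4.02 for Mmp9, -0.58 to 0.18 for Mmp2 and 0.07 to 0.44 for Timp1. It gave 3.99 to 6.12 for Timp1 per Mmp9, -5.55 to -3.53 for Mmp9 per Mmp2, -0.11 to 0.73 for Timp1 per Mmp2 and -0.07 to 0.76 for Timp1 per summed gelatinase.

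Timp1 turned from 0.22 to -0.05 with library totals, -0.06 on log2(FPKM + 1) with or without the filter and -0.07 on log2(FPKM + 0.1); FPKM is scaled by totals too, and the median of all tested genes moved to -0.26, -0.2 and -0.26. Ratios of raw counts gave the same differences as ratios of FPKM, by construction. The replicate block gave -5.18 for Mmp9 (edgeR adjusted p = 0.0155), -0.24 for Mmp2 and 0.19 for Timp1, with 1999 genes called, and changed no call of the 3. Over all tested genes, libraries that share a replicate number showed no common deviation (correlations of deviations -0.06, 0.03 and 0.09; 3 of 6 libraries closest to their own number). For Mmp9 alone, replicate 1 was highest in both groups. Its log2 CPM deviations were 0.57, -0.42 and -0.15 with C-Gel-light and 2.11, 0.1 and -2.21 in FNI. The SE of its log2 fold change was 0.68 with the block and 1.23 without it.

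Genes called numbered 2301 (1101 higher, 1200 lower), but 3618 by DESeq2, 3937 (645 higher, 3292 lower) with library totals, 3654 (615 and 3039) on log2(FPKM + 1), 372 and 1809 without the filter, 3741 (632 and 3109) on log2(FPKM + 0.1), and 797 to 1726 with 1 library left out. The other causes were not tested. At 3 to 8 counts in each treated library, the level of Mmp9 there is limited by depth. The tests of gene lists were not run, since no table pairs the IDs of their genes with symbols.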
